A study of Homo sapiens with 6 samples.

Results

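The RNAs described here are the 4 small nuclear RNAs (snRNAs) that are particular to the minor spliceosome: U11 (RNU11), U12 (RNU12), U4atac (RNU4ATAC) and U6atac (RNU6ATAC). Their positions were taken from the 2 deposited tables of base counts wherever a row lay inside 1 of these GENCODE genes, on the strand of the gene. This gave 178 of the 176343 positions listed under imbalanced dNTP and 123 of the 246881 listed under balanced dNTP, of which 89 were listed in both. The samples are chromatin-associated RNA (caRNA) of HepG2, a human liver cancer cell line, without any knockdown or treatment of the cells, in 3 biological replicates. Nm-mut-seq was used to look for 2′-O-methylated nucleotides (Nm). With dATP in excess, reverse transcriptase misincorporates at Nm, so that a methylated G, A or C is read as T. Part of the ligated RNA of a replicate was reverse transcribed with imbalanced dNTP (dATP at 1 mM, dCTP, dGTP and dTTP at 2 µM). The rest was reverse transcribed with balanced dNTP (dATP at 1 mM, the others at 1000 µM) and served as the input. The comparison of these reactions thus asks at which positions reads with T depend on the dNTP balance.

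The minor spliceosome removes a small class of introns with divergent splice sites. U11 pairs with their 5′ splice site and U12 with their branch site, both as parts of a shared di-snRNP. U4atac carries U6atac in a paired form together with U5 into the complex and is then released, and U6atac takes part in the catalytic core. U5 is shared with the major spliceosome, which uses U1, U2, U4 and U6 in the corresponding places. Internal 2′-O-methylation of snRNAs is known to be guided by box C/D small Cajal body RNAs. One such RNA, SCARNA17, is known to guide methylation of the G at position 22 of U12.

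The 4 sequences are shown as they stand in hg38, written with T for U, because each result below is a position in them. Capitals mark the positions that passed the criteria for a called position, defined below, and the other letters are in lower case.
U11: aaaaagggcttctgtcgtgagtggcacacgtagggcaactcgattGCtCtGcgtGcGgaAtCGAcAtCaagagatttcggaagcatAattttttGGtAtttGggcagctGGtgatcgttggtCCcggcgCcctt
U12: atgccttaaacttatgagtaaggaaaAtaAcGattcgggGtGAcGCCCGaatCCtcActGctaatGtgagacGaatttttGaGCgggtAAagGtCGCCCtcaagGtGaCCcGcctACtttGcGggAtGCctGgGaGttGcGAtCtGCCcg
U4atac: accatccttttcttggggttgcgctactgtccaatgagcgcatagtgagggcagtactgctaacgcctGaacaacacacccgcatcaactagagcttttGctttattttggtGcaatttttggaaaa
U6atac: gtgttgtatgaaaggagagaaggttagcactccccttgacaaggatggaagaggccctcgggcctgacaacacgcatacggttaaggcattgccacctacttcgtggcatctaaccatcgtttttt
Positions are counted from 1 at the 5′ end of each gene.

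RNU11 (ENSG00000274978) lies on chromosome 1 of hg38, from 28648600 to 28648733 on the plus strand, and is 134 nt long. RNU12 (ENSG00000276027) lies on chromosome 22, from 42615244 to 42615393 on the plus strand, and is 150 nt long. RNU4ATAC (ENSG00000264229) lies on chromosome 2, from 121530881 to 121531007 on the plus strand, and is 127 nt long. RNU6ATAC (ENSG00000221676) lies on chromosome 9, from 134164439 to 134164564 on the minus strand, and is 126 nt long. Long noncoding RNA genes overlap RNU11, RNU12 and RNU4ATAC on the same strand, among them CLASP1-AS1 at RNU4ATAC, so that their reads cannot be told apart from those of the snRNAs. Within 200 nt outside the 4 genes on their own strand, 1 position was listed in all, beside RNU4ATAC, and no position was listed on the opposite strand within them. All 4 RNAs are shorter than 200 nt, the length below which RNA was removed during clean-up, so depth here is not a measure of their level in the cell.

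A position is listed under imbalanced dNTP only where at least 1 library had 3 or more reads with T, and under balanced dNTP where at least 1 library had 1 or more. The lowest depth in either table is 5, and summed over all listed positions the depth of a library was 17063930 to 22485865 under imbalanced and 22974020 to 34367262 under balanced dNTP. U6atac had a single listed position, C59 under balanced dNTP, with 0 reads with T of 34, 1 of 20 and 0 of 22 in replicates 1, 2 and 3. Under imbalanced dNTP it had none. A position can be missing from a table because its depth or its reads with T were too few, so this says nothing about the level or the methylation of U6atac. The median depth of a listed position under imbalanced dNTP was 199, 151 and 130 in U11, 217, 181 and 177.5 in U12, and 32, 31 and 34 in U4atac for replicates 1, 2 and 3. Under balanced dNTP it was 384.5, 242 and 189 in U11, 563, 379 and 324 in U12, and 68.5, 41.5 and 34 in U4atac. U4atac was thus covered several times less deeply than U11 and U12 in all 6 libraries.

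The mutation ratio is the share of reads with T in the depth. Listing itself asks for 3 reads with T under imbalanced and for 1 under balanced dNTP. The values at listed positions therefore favour a higher ratio under imbalanced dNTP in every RNA. The same limit holds below for the tests of single positions and for groups that do not overlap at a position. The values are given with that limit. In U11, summed over the listed positions of each table, it was 3.00%, 3.02% and 2.83% under imbalanced and 0.159%, 0.192% and 0.148% under balanced dNTP in replicates 1, 2 and 3. The mean difference was 2.78 ± 0.0885 percentage points (SD, n = 3). In U12 it was 3.17%, 3.32% and 3.17% against 0.184%, 0.147% and 0.147%, a mean difference of 3.06 ± 0.101 percentage points (SD, n = 3). In U4atac it was 6.22%, 8.18% and 5.83% against 0.530%, 1.13% and 0.623%, a mean difference of 5.98 ± 0.957 percentage points (SD, n = 3). The groups did not overlap in any of these RNAs, and the ratio was higher under imbalanced dNTP in 3 of 3 pairs. At positions listed in both tables, where the same positions are compared but the thresholds still differ, the differences were 3.27, 3.28 and 5.73 percentage points in U11, U12 and U4atac. An exact paired permutation test over the 3 pairs gave p = 0.25 (two-sided) for each RNA, which is the smallest p that 3 pairs allow. The values for U4atac cannot be set against those of U11 and U12, because a position with about 30 reads has to reach a high ratio to be listed at all. With a depth of at least 50 in the 3 libraries of a reaction, its difference was 3.54 percentage points. Only A105, which was not listed under balanced dNTP, was then left under imbalanced dNTP, so different positions are compared.

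**Figure D1:**
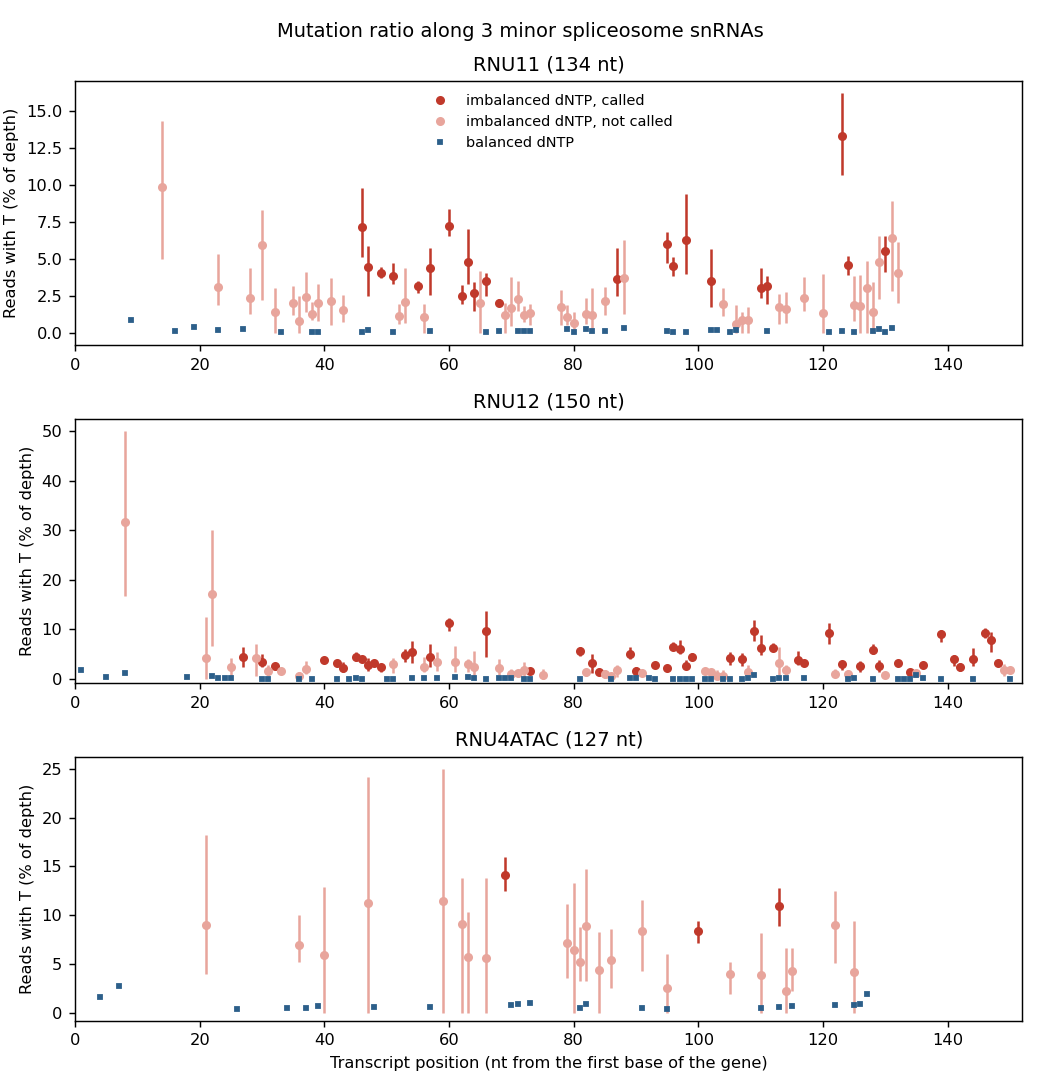
Mutation ratio (reads with T, % of depth, linear axis with its own range in each panel) along U11, U12 and U4atac, by position from the first base of the gene. Points are means of 3 replicates under imbalanced dNTP, with lines from the lowest to the highest replicate, dark red where the position was called and light red where it was not, and blue squares are means under balanced dNTP. The highest points are C123 in U11 (13.3%), A8 and G22 in U12 (31.7% and 17.1%, at low depth) and G69 in U4atac (14.1%), and all blue squares lie below 3%.

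A position was called where each of the 3 replicates had a depth of 10 or more, 3 or more reads with T and a mutation ratio over 3 times that of the input. The input counts as 0 where it did not list the position. The paper's criteria for Nm sites also include a background from spike-in RNA without Nm, which was not used here. A called position is therefore not the same as an Nm site of the paper. Of all positions listed under imbalanced dNTP in the whole table, 29651 of 176343 (16.8%) were called. In the minor snRNAs 75 of 178 listed positions were called. U12 held 50 of them, which is 56.8% of its 88 listed positions and 43.9% of its 114 G, A and C positions (Wilson 95% confidence interval from 35.1% to 53.0%). U11 held 22, which is 33.8% of its 65 listed positions and 22.7% of its 97 G, A and C positions (interval from 15.5% to 32%). U4atac held 3, at G69, G100 and G113, which is 12.0% of its 25 listed positions and 3.37% of 89 (interval from 1.15% to 9.45%). U6atac had no position listed under imbalanced dNTP, so none of its 95 G, A and C positions could be called and no interval is given. These intervals cover counting error only, and neighbouring positions share reads. The 3-read minimum decided most of the rest: 43, 37 and 22 listed positions of U11, U12 and U4atac had too few reads with T in some replicate. None of the positions that met the minimums of depth and reads failed on the input. The positions with too few reads were not counted for the input criterion.

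Most called positions carried a low ratio. The mean ratio of a called position had a median of 4.26% in U11, with a range from 2.07% to 13.3%, and of 3.92% in U12, with a range from 1.43% to 11.2%. In U4atac the 3 called positions had 8.34%, 10.9% and 14.1%. Of the 75 called positions, 40 were also listed in the input and 35 were not, so that the input depth at those 35 is unknown. If a listed input is required, 13, 26 and 1 remain called in U11, U12 and U4atac. Without replicate 2, and likewise without replicate 3, 6 positions of U4atac were called, where fewer replicates had to meet the criteria.

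In U11, which recognises the 5′ splice site, the highest mean ratio was at C123, close to the 3′ end of the RNA. It had 15 reads with T of 141, 15 of 114 and 17 of 105 under imbalanced dNTP, and 2 of 439, 0 of 286 and 0 of 191 under balanced dNTP. The groups did not overlap, with a mean of 13.3% ± 2.78 (SD, n = 3) against 0.152%, and the log2 change of the mutated share was 5.76 (SE 0.792, adjusted p = 1.52e-12, edgeR's quasi-likelihood test). The next called positions were A60, with 14 of 213, 10 of 147 and 12 of 143 under imbalanced dNTP and no listed input, and G46. At G46 the reads with T were 22 of 224, 8 of 156 and 10 of 153, against 0 of 497, 1 of 278 and 0 of 206. All 3 imbalanced libraries lay above the input there too, with a log2 change of 5.83 (SE 0.917, adjusted p = 7.32e-10).

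The remaining positions among the highest 5 of U11 were not called. At G14 the reads with T were 4 of 28, 1 of 20 and 3 of 29, and the position was not listed in the input. C131 had 9 of 101, 6 of 80 and 2 of 70 against 0 of 345, 1 of 230 and 1 of 137. Replicate 3 of the imbalanced libraries was lowest at C131 but still above the input, and the log2 change was 4.47 (SE 1.08, adjusted p = 7.34e-05). Without replicate 1 the adjusted p of C131 was 0.130. Called positions of U11 began at G46, although positions from 14 on were listed, and 10 of them were G, 5 A and 7 C.

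In U12, which recognises the branch site, the highest mean ratio at a depth of at least 10 was at G22. The reads with T were 5 of 34, 9 of 30 and 1 of 15 under imbalanced dNTP and 3 of 389, 1 of 210 and 1 of 204 under balanced dNTP. The groups did not overlap, but the spread was wide (17.1% ± 11.9, SD, n = 3), and G22 was not called because replicate 3 had a single read with T. The log2 change was 5.01 (SE 1.02, adjusted p = 2.51e-06). A still higher ratio stood at A8, with 2 reads with T of 7, 3 of 6 and 1 of 6 under imbalanced dNTP and 2 of 138, 1 of 75 and 1 of 86 under balanced dNTP. A8 had too little depth for the criteria and the test, and is named here after its values were seen.

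Further along U12, G60 had 15 reads with T of 155, 15 of 129 and 16 of 129, the closest agreement of replicates among the highest 5, and no listed input. G66 had 22 of 204, 8 of 176 and 24 of 175 against 0 of 499, 1 of 365 and 0 of 282. Replicate 2 was the lowest of the 3 at G66 and still above every balanced library, with a log2 change of 6.38 (SE 0.829, adjusted p = 7.21e-14). G121 had 17 of 237, 20 of 176 and 21 of 218, again with no listed input. C109 had 13 of 170, 12 of 130 and 18 of 150, and its input was among the highest in these RNAs, with 5 of 580, 3 of 394 and 3 of 313. The groups did not overlap at C109, and its log2 change of 3.52 (SE 0.588, adjusted p = 7.36e-09) was the smallest of those tested among the highest 5 of U12.

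U12 positions were called from A27 to C148. They were 24 G, 9 A and 17 C, which is 55.8% of the G, 25% of the A and 48.6% of the C positions of the RNA. In U11 the corresponding shares were 24.4%, 17.9% and 25%.

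In U4atac, the partner of U6atac, the 3 called positions were all G. G69 had 4 reads with T of 32, 4 of 29 and 4 of 25 under imbalanced dNTP, and no listed input. G100 had 6 of 64, 4 of 47 and 4 of 56, also without a listed input. At G113 the reads with T were 6 of 54, 6 of 47 and 4 of 45 against 0 of 97, 0 of 64 and 1 of 59. The groups did not overlap at G113, and the log2 change was 4.21 (SE 1.39, adjusted p = 0.00407). It lost the test without replicate 1 (adjusted p = 0.169) and without replicate 2 (adjusted p = 0.128). The others among the highest 5 varied widely between replicates and were not called. G59 had 0 of 29, 7 of 28 and 2 of 21, G47 had 3 of 31, 7 of 29 and 0 of 21, and A62 had 4 of 29, 0 of 30 and 3 of 22. None of them was listed in the input, and each had a replicate without any read with T.

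Mutated and unmutated reads were tested position by position over the whole table, at the 32284 positions of both tables that each of the 6 libraries covered at least 10 times. The replicate number was a block in edgeR's quasi-likelihood fit. At an adjusted p-value under 0.05, 23850 positions (73.9%) had a higher mutated share under imbalanced dNTP and 18 (0.0558%) had a lower share. Of the 88 tested positions of the minor snRNAs, 67 (76.1%) were higher and 0 were lower. The count was 43 of 49 in U12 (87.8%), 21 of 30 in U11 (70.0%) and 3 of 9 in U4atac (33.3%). The median log2 change was 4.09 in U12, 3.69 in U11 and 2.75 in U4atac, beside 3.94 over all tested positions. The share for all members was thus close to that of the whole table. By Fisher's exact test in each replicate, with all 3 passing, the counts were 23 in U12, 9 in U11 and 0 in U4atac. Without replicate 1 edgeR called 10 positions of U11, and with 1 replicate left out it called 0 or 1 of U4atac.

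Among the positions that did not pass, the 9 in U11 were 23, 38, 72, 79, 80, 82, 83, 106 and 128, the 6 in U12 were 36, 70, 86, 104, 124 and 135, and the 6 in U4atac were 81, 82, 95, 110, 115 and 125. All had a higher fitted share under imbalanced dNTP, with few reads with T on both sides. The position with the smallest change was A135 of U12, with 4 of 271, 3 of 189 and 2 of 225 under imbalanced and 4 of 518, 2 of 342 and 4 of 318 under balanced dNTP. The groups overlapped there, and the log2 change was 0.61 (SE 0.887, adjusted p = 0.503). At 5 positions the ratio was lower under imbalanced dNTP in some replicate, namely A82 and A106 in U11 and G70, A108 and A135 in U12. At A106 of U11 the reads with T were 0 of 209, 3 of 159 and 0 of 168 against 2 of 520, 1 of 345 and 0 of 232, with a log2 change of 1.08 (SE 1.5, adjusted p = 0.481), and without replicate 2 its direction turned. A108 of U12 passed the test (log2 change 3.07, SE 1.30, adjusted p = 0.0263), but not with any 1 replicate left out.

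Reads with T were also compared between the bases. At the 89 positions listed in both tables, the mutation ratio under imbalanced dNTP was 3.66%, 3.66% and 3.80% at the 40 G positions and 3.79%, 3.67% and 3.83% at the 27 C positions in replicates 1, 2 and 3. At the 22 A positions it was 3.08%, 3.04% and 2.15%, below G and C in each of the 3 replicates. Under balanced dNTP the means (± SD, n = 3) were 0.132% ± 0.0147 for G, 0.231% ± 0.0430 for A and 0.173% ± 0.0431 for C. The mean over positions was 4.28% for A, 4.37% for G and 3.89% for C, so that A came above C. The A positions include A8 of U12 (mean 31.7%), with only 7, 6 and 6 reads under imbalanced dNTP. The median over positions was again lowest for A, with 2.67%, against 3.71% for G and 3.32% for C. Over the 4 RNAs, 37 of 145 G (25.5%), 14 of 127 A (11%) and 24 of 123 C (19.5%) were called. These totals include the positions of U6atac, of which none was listed under imbalanced dNTP.

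A U stood directly before (5′ of) 11 of the 15 highest positions of U11, U12 and U4atac. This was noticed after the values were seen and is given as a description. In U11 12 of 23 G, A and C positions with a U before them were called, and 10 of the other 74. In U12 15 of 26 and 35 of the other 88 were called, and in U4atac 3 of 21 and 0 of the other 68. Over the positions listed in both tables, the mutation ratio under imbalanced dNTP was 4.94% ± 0.0566 at the 27 positions after a U and 2.89% ± 0.0946 at the other 62 (SD, n = 3), and the 3 values of the former lay above the 3 of the latter. Under balanced dNTP the values were 0.138% ± 0.0136 and 0.179% ± 0.0169 (SD, n = 3). Over the whole table the order was the other way round, with a U before 44.9% of the called and 60.8% of the listed positions that were not called. In the minor snRNAs these shares were 40.0% and 23.3%.

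U on both sides (UNU) was rare in these RNAs. U11 and U12 together hold 7 such G, A and C positions, of which 4 were called, C49 and A98 in U11 and G66 and C144 in U12. In U4atac 0 of 3 were called, and the 4 in U6atac were not listed under imbalanced dNTP. Of all G, A and C positions, 22.7% were called in U11 and 43.9% in U12. With so few UNU positions, the counts are a description only. At A98 the reads with T were 13 of 236, 16 of 170 and 7 of 174 against 1 of 518, 0 of 340 and 0 of 220, and the groups did not overlap. In U11 and U12 together, positions that were paired in a predicted minimum free energy fold were called at 46 of 136 (33.8%) and unpaired ones at 26 of 75 (34.7%).

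Some positions fall in sequences of known function. The letters TTTTTG, the core of the Sm site on which the Sm protein ring assembles, stand at 90 to 95 in U11, 76 to 81 in U12 and 117 to 122 in U4atac. They occur in 9.73% of the 1573 other snRNA genes of 100 to 200 nt, of which the strand of the gene was searched, as for all motifs here. The G at the end of the motif was listed in all 3 RNAs and called in U11 and U12. It follows a U, and of all G, A and C positions after a U, 12 of 23 were called in U11, 15 of 26 in U12 and 3 of 21 in U4atac. The calls are thus not read as particular to the motif. G95 of U11 had 11 reads with T of 231, 12 of 176 and 11 of 171 against 0 of 511, 0 of 338 and 1 of 235. G81 of U12 had 25 of 385, 17 of 304 and 15 of 317 against 1 of 797, 0 of 559 and 0 of 460. G122 of U4atac had 4 of 42, 4 of 32 and 2 of 39 against 0 of 83, 0 of 51 and 1 of 42. The groups did not overlap at any of the 3. The log2 changes were 5.50 (SE 0.954), 6.25 (SE 0.788) and 3.58 (SE 1.59), with adjusted p-values of 2.60e-08, 1.17e-14 and 0.0338 by edgeR's quasi-likelihood test. Of all positions tested, 73.9% passed in this direction. With 1 replicate left out, G122 of U4atac no longer passed (adjusted p from 0.0826 to 0.332), nor did it by Fisher's exact test in all 3 replicates. The letters AAGGA, which hold part of the branch site pairing of U12, stand at 20 to 24 there and hold A21 and G22. They also stand at 12 to 16 and 41 to 45 of U6atac, and occur in 48.6% of the other snRNA genes. The letters AAAGGG at 3 to 8 of U11, in its 5′ splice site pairing, hold no listed imbalanced position and occur in 0.763% of the other genes.

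**Figure D2:**
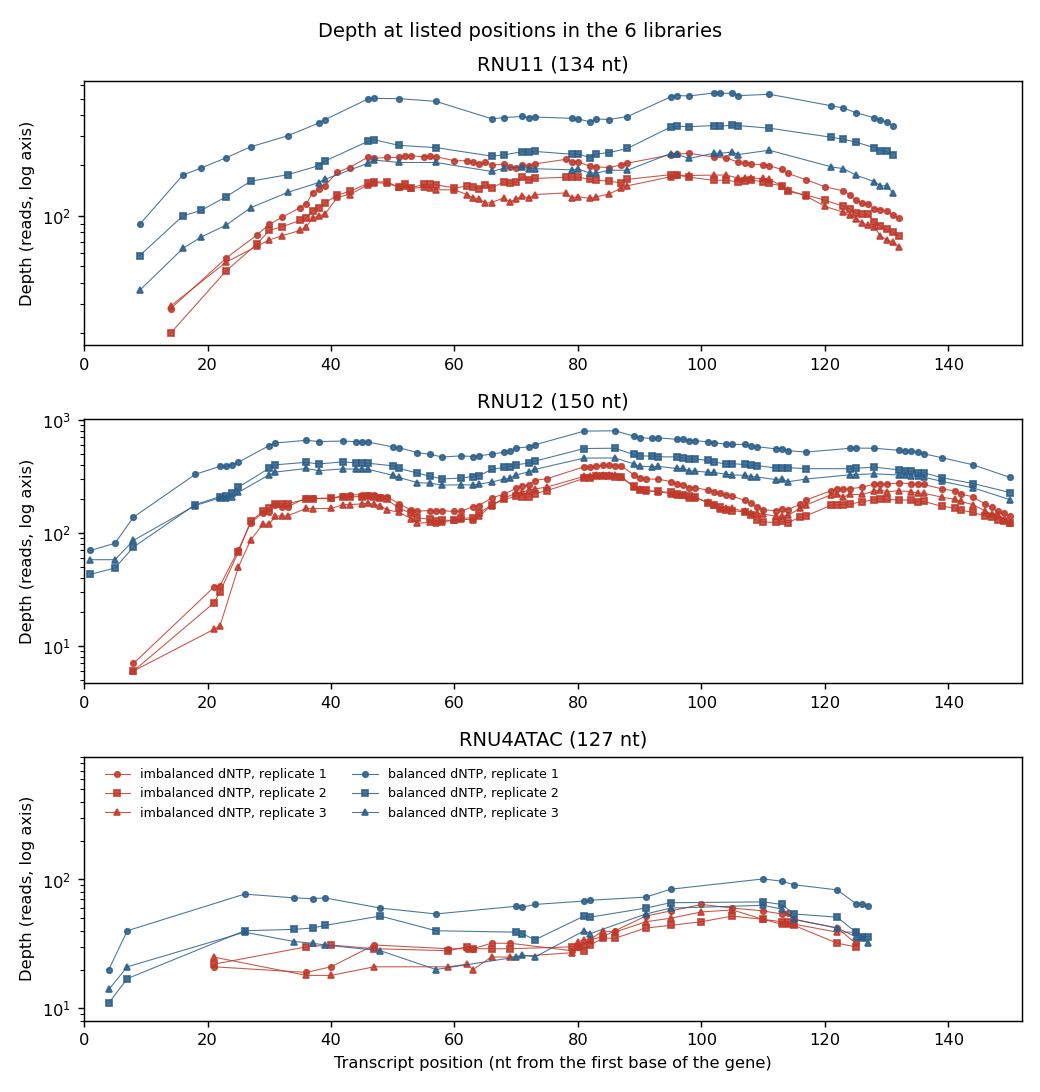
Depth (reads, log axis) at each listed position of U11, U12 and U4atac in the 6 libraries, by position from the first base of the gene. Red lines are the imbalanced and blue lines the balanced dNTP libraries, with a symbol for each replicate, and in U12 the red lines drop towards the 5′ end, to 7, 6 and 6 reads at position 8, where the blue lines stand at 138, 75 and 86.

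The depth itself differed between the reactions along U12. A test of depth was added after these profiles were seen (edgeR, quasi-likelihood, TMM scaling and the replicate block, over the 35761 positions listed in both tables). Over all positions 8950 (25.0%) had a lower and 7461 (20.9%) a higher depth under imbalanced dNTP. U12 was lower at 38 of its 50 positions, U11 at 12 of 30 and U4atac at 0 of 9, and no position of these RNAs was higher. Without the replicate block the counts were 4 in U12 and 0 in U11, and without replicate 1 or without replicate 2 the count in U11 was 7.

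The difference was steepest at the 5′ end of U12. The log2 change of depth was -3.24 at position 8 (SE 0.229, adjusted p = 1.54e-07), -2.62 at position 22 (SE 0.174, adjusted p = 8.63e-08) and -1.54 at position 25 (SE 0.120, adjusted p = 3.95e-07). It was -0.85 at position 30 and -0.50 at position 46. The depth under imbalanced dNTP was 0.0507, 0.0800 and 0.0698 times that under balanced dNTP at position 8 in replicates 1, 2 and 3. At position 22 it was 0.0874, 0.143 and 0.0735 times. The median over all 35761 positions was 0.500, 0.661 and 0.714 times in these replicates. Summed over the replicates, 0.0140% of all positions had a ratio at or below that of position 8, and 0.0643% at or below that of position 22. The same positions had the highest mutation ratios of U12, but with so few reads the 3 reads with T needed for listing already set a high ratio, so the match is not read as a relation. A second, shallower minimum lay at position 112, with a log2 change of -0.82, between values of -0.12 at position 86 and -0.06 at position 139.

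U11 changed less. Its log2 change of depth was -0.75 at position 23 and -0.79 at position 130, near the ends of the RNA, and 0.06 to 0.08 at positions 79, 80 and 82. In U4atac the 9 values ran from -0.08 to 0.28, and none passed the test.

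**Figure D3:**
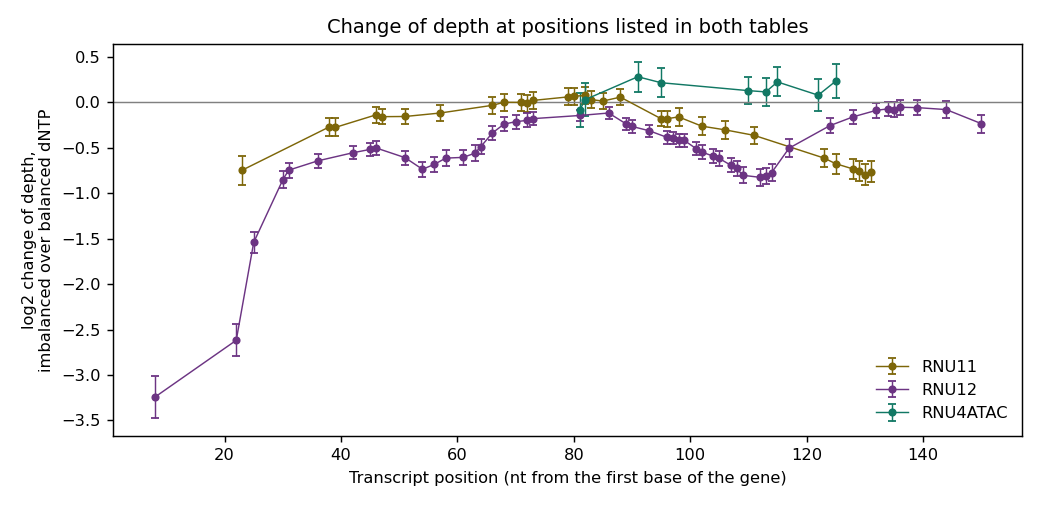
Log2 change of depth (imbalanced over balanced dNTP, edgeR fit with TMM scaling) at the positions of U11, U12 and U4atac listed in both tables, by position from the first base of the gene, with bars of 1 SE. U12 falls to -3.24 at position 8, while U11 stays above -0.80 and U4atac stays between -0.08 and 0.28.

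The minor snRNAs were set beside the other spliceosomal snRNAs and the whole table, at positions listed in both tables and without a test, since genes are not replicates. The mutation ratio under imbalanced dNTP was 3.43% ± 0.139 in U11 and 3.43% ± 0.0487 in U12, beside 3.54% ± 0.194 in the 5 U5 genes, 2.68% ± 0.184 in the 2 U4 genes, 4.87% ± 0.249 in the U1 genes and 3.47% ± 0.112 over all 35761 positions (SD, n = 3). U4atac had 6.32% ± 0.552. Under balanced dNTP U11 and U12 had 0.163% and 0.157%, U5 0.109%, U4 0.0992%, U1 0.566% and U4atac 0.592%. U11, U12, U5 and the whole table overlapped in their replicates under imbalanced dNTP. Of the G, A and C positions, 56.6% were called in U5, 38.2% in U4 and 3.17% in the 31 U1 genes, of which 14 had a listed imbalanced position, beside 43.9% in U12 and 22.7% in U11. Of the listed positions, 75.3% were called in U5, 63.4% in U4, 37.7% in U1, 56.8% in U12 and 33.8% in U11, so that the order of U1 and U11 turned with the denominator. The median over positions of the lowest depth among the 3 imbalanced libraries was 656.5 in U5, 343 in U4, 173.5 in U12, 130 in U11 and 42 in U4atac, and its part in these shares was not tested. The U2 gene and the 5 U6 genes had no position listed under imbalanced dNTP. The depth under imbalanced dNTP, summed over the positions of an RNA, was 0.466 ± 0.0887 times that under balanced dNTP in U12, 0.552 ± 0.119 in U11, 0.704 ± 0.155 in U4atac, 0.319 ± 0.0661 in U4, 0.700 ± 0.103 in U5 and 1.21 ± 0.158 in U1 (SD, n = 3).

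**Figure D4:**
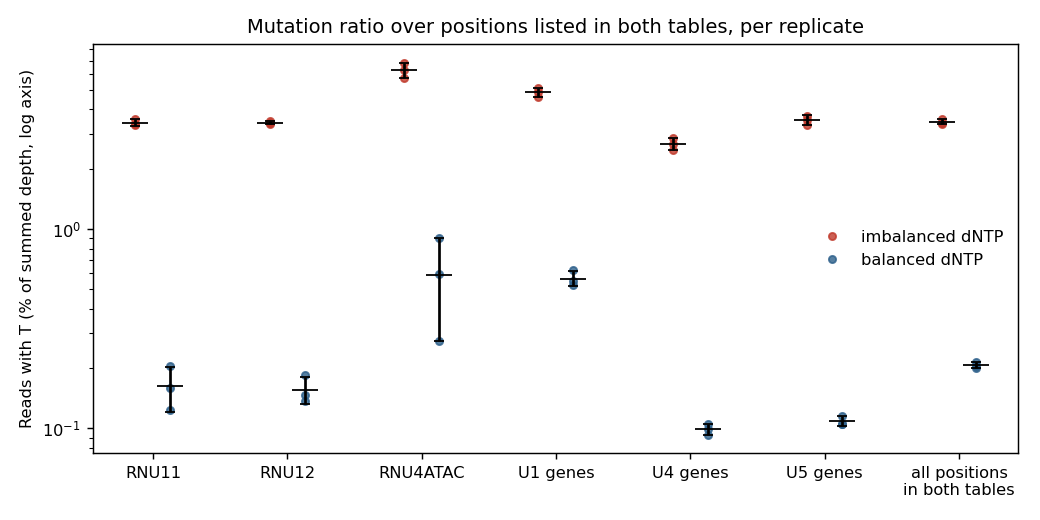
Mutation ratio (reads with T, % of summed depth, log axis) over positions listed in both tables, for U11, U12, U4atac, the U1, U4 and U5 genes and all 35761 positions. Points are the 3 replicates under imbalanced (red) and balanced (blue) dNTP, with horizontal lines at the mean and bars of 1 SD, and every red point lies above 2% and every blue point below 1%.

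Annotated copies of the minor snRNAs and the proteins of the minor spliceosome were also searched. GENCODE annotates 64 further copies of the 4 RNAs, 5 of U11, 1 of U12, 17 of U4atac and 41 of U6atac, and none had a listed position in either table. Reads that fit several places could be placed at up to 4 of them, so that reads of a copy with the same sequence cannot be told apart from those of the genes above. The 14 genes of minor spliceosome proteins, among them ZRSR2, which binds the 3′ splice site, and RNPC3, which bridges U11 and U12, had no listed position either.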

How the data were processed

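Nm-mut-seq libraries of HepG2 caRNA were analysed in 2 groups, imbalanced and balanced dNTP, of 3 replicates each. Per the labels and the paper's methods, the authors depleted rRNA, fragmented the RNA, ligated a 3′ linker with a unique molecular identifier, sequenced 100 nt single-end reads, trimmed them with Cutadapt, removed duplicates with BBMap, mapped to hg38 with TopHat2 and tabulated the bases with JACUSA. The files hold the counts of reads for every base and library as deposited, without normalization. The authors also deposited a score that JACUSA gives to each position, which was not used, and the spike-in background is not analysed here. All columns of sample counts could be assigned. All 387463 listed reference bases equal hg38 on the listed strand.

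The RNAs, lists and tests were chosen with earlier results of these data known. Genes came from GENCODE release 44, and the GENCODE transcripts of the 4 RNAs equal the genome. For each RNA the text names the 5 positions of highest mean ratio among those covered at least 10 times, any with a mean ratio of at least 5% under balanced dNTP (there were none), and those listed in both tables that did not pass the edgeR test or were lower in a replicate. Others were chosen after their values were seen.

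Reads with and without T were fitted with edgeR 4.0.16 (R 4.3.3) by its quasi-likelihood F test. The model held library effects, replicate effects on the mutated share (the block) and the reaction, and p-values were adjusted over 32284 positions by Benjamini-Hochberg. Alternatives included DESeq2 1.42.0 and Fisher's exact test. Structures were predicted with ViennaRNA 2.7.2. Python 3.11.15 was used for the rest (pandas 2.3.3, scipy 1.17.1, numpy 2.4.6, matplotlib 3.10.9). The fit was tested on simulated data with 200 of 32284 positions raised: 56% of those raised 16-fold and 86% of those raised 32-fold were recovered, and 0 unchanged positions were called. The simulated reads with T varied between replicates by counting error only and were not selected by the listing thresholds. The 0 therefore does not measure false calls among listed positions. The depth test, tested on simulated data of 35761 positions, recovered 94% of the positions lowered 4-fold. These simulated depths were drawn independently for each position, with a fixed spread and no replicate effects. Neighbouring positions of the real data share reads, so the 94% need not hold for them.

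Replicate numbers pair the libraries by the labels, since each pair comes from the same ligated RNA. At 24432 deeply covered positions, deviations of log2 depth correlated within pairs at 0.746, 0.590 and 0.871, and those of the mutation ratio at -0.0087, -0.0075 and -0.0012. The depth printed beside a ratio limits its precision, and the spread between replicates can be wider than depth alone would give.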

Additional observations from a re-analysis of the deposited data

Results flagged for a closer look

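Reads with a mismatch other than T are outside the main measurement. At the 50 positions of U12 listed in both tables they made up 0.269%, 0.287% and 0.270% of the depth under imbalanced dNTP (mean 0.275% ± 0.00996, SD, n = 3) and 0.252%, 0.263% and 0.257% under balanced dNTP (mean 0.257% ± 0.00566, SD, n = 3). This share was above that of the control libraries in every replicate, by far less than the share of reads with T. In U11 the values were 0.279% ± 0.0689 and 0.213% ± 0.00876 (SD, n = 3), and they overlapped between the groups. In U4atac they were 0%, 0% and 0.785% under imbalanced and 0.274%, 0% and 0% under balanced dNTP, so replicate 1 went the other way. U12 was singled out because its groups did not overlap, and no value over all positions is given here.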

How the results depend on the processing

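The counts of called positions in U11 and U12 moved most with a minimum mutation ratio, and that in U4atac with depth. Where every replicate had to reach 0.05, 3 positions of U11 and 10 of U12 were called, and at 0.1 it was 1 in U11, 0 in U12 and 1 in U4atac. With a listed input required, 13, 26 and 1 were called. At a depth of at least 50, 0 were called in U4atac. Leaving out 1 replicate gave 26 to 29 called positions in U11, 54 to 60 in U12 and 3 to 6 in U4atac. Because the criteria must hold in every replicate used, leaving one out can only keep or raise a count. What set the size of these changes was not tested.

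The difference in mutation ratio kept its direction under every alternative run, but the listing thresholds favour that direction in all of them. It was 2.90, 3.27 and 2.65 percentage points in U11 as a mean over positions, at positions listed in both tables and without the highest position. It was 3.64 and 3.28 in U12 for the former 2. In U4atac it was 3.54 at a depth of at least 50, where only A105 was left under imbalanced dNTP. The balanced side held other positions. Leaving out 1 replicate gave 2.75 to 2.83 in U11, 3.00 to 3.10 in U12 and 5.45 to 6.37 in U4atac. By base, the ratio as a mean over positions was 4.37% for G, 4.28% for A and 3.89% for C, and over all listed positions it was 3.21% for C. The mean for A includes A8 of U12, with 31.7% at 7, 6 and 6 reads.

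By Fisher's exact test 9, 23 and 0 positions of U11, U12 and U4atac had a higher mutated share, and with 1 replicate left out edgeR gave 10 to 14, 29 to 30 and 0 to 1. DESeq2 gave 21, 42 and 4. Without the replicate block in the paired design, edgeR gave 24, 47 and 4 for the mutated share, against 21, 43 and 3 with it, and the criteria with the input summed over replicates called 22, 50 and 3. For depth, the fit without the replicate block gave 0 lower positions in U11 and 4 in U12, against 12 and 38 with it, and with 1 replicate left out the counts were 7 to 13 and 32 to 39. The change at A106 of U11 was reversed without replicate 2, to a log2 change of -2.45 (edgeR, adjusted p = 0.551), and with a replicate left out it ran from there to 2.40. Of the other alternatives for single positions, 200 kept their direction and side of the threshold, 11 passed it newly and 11 lost it. The precision of single ratios in U4atac is limited by a median depth of 31 to 34 reads under imbalanced dNTP.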
